A study of Mus musculus with 6 samples.

Results

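The 4 myogenic regulatory factors and Pax7 were described in gastrocnemius/plantaris (GP) muscle, the large calf muscle of the mouse. The members were the rows of the count tables named Myod1, Myog, Myf5, Myf6 and Pax7, which are 5 of the 24421 genes listed, and all 5 were among the 14180 genes with enough counts to be tested. Bulk RNA-Seq was performed on 3 libraries labelled Ctrl and 3 labelled cKO, each from 1 male mouse at 5 months of age, 3 months after tamoxifen. The labels give B6C3F1 as the background, while in the study's methods that strain gave the zygotes, and founders were then bred to C57BL/6N and to the Cre line. Mice named Ctrl carried Net39 fl/fl, with loxP sites around the first exon of Net39, and had no Cre. Mice named cKO carried Net39 fl/fl and HSA-CreERT2, a Cre that tamoxifen activates and that the human skeletal actin promoter drives. Both groups received tamoxifen as adults, so what they share is the floxed allele and the drug. The actin promoter is active in muscle fibers, so in the design deletion is meant for myonuclei and not for satellite cells or the other cells of the tissue.

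MyoD (Myod1), Myf5, myogenin (Myog) and MRF4 (Myf6) are basic helix-loop-helix transcription factors that bind DNA as dimers with E proteins, at a short motif called the E-box. In development Myf5 and MyoD commit cells to the muscle lineage, myogenin drives myoblasts to differentiate, and MRF4 is the member with the highest level in mature fibers. Pax7 is the paired-box factor that marks satellite cells, the stem cells that lie beside each fiber. In adult muscle, Myog is low in innervated fibers and is known to rise on denervation, and Myod1 is known to be higher in fast than in slow fibers.

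The deleted gene was read first, since it checks the labels. Net39, a nuclear envelope protein of muscle that the files list as Ppapdc3, was counted 310, 321 and 217 times in labelled Ctrl, against 5365, 4340 and 6080 times in labelled cKO. In CPM, the counts per 1000000 counts of a library scaled with TMM factors, its level was 7.20 ± 1.10 (SD, n = 3) against 134 ± 19.7, a log2 fold change of 4.22 (SE 0.17, adjusted p = 0.000161, edgeR). The gene meant to be deleted was thus high in the libraries that carry the label cKO, which goes against the labels. The groups were kept as labelled, every direction below is one between labelled groups, and all log2 fold changes are labelled cKO over labelled Ctrl. Should the labels of the groups have been exchanged, which was not tested beyond this gene, each direction would be the opposite one between the genotypes.

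Libraries held 33860001 to 38201728 counts in the labelled Ctrl group and 39191239 to 48839910 in the labelled cKO group, so that the limit allowed by a count of 0 (3 counts) was 0.0681 to 0.0846 CPM. The TMM factors were 1.08 to 1.11 in labelled Ctrl and 0.865 to 0.983 in labelled cKO. Of all genes tested, 1668 passed the test (adjusted p under 0.05, named a call here) with a higher level in labelled Ctrl and 1786 with a higher level in labelled cKO. Scaled by total counts instead, 4069 and 673 genes passed, a split of 85.8% and 14.2% of the calls instead of 48.3% and 51.7%, and the median over all genes moved from -0.015 to -0.27 on the log2 scale. Skeletal muscle actin, Acta1, stood at 29969 to 40519 CPM, so that all 6 libraries hold skeletal muscle RNA.

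Of the 5 members, 2 passed the test with a higher level in the libraries labelled Ctrl, Myog and Myf6, where 11.8% of all genes tested did so. Myog also exceeded the 2-fold limit of the study, so 1 of 5 members met both limits, against 3.92% of all genes. No member passed with a higher level in labelled cKO in edgeR (0 of 5, against 12.6% of all genes), while 1 member, Myod1, had an unadjusted p under 0.05 and passed in DESeq2. The groups did not overlap for 2 of the 5 members, against 43.9% of all genes, so non-overlap by itself was common in this comparison. The members were chosen with earlier results of these data known, so these shares only describe them.

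**Figure D1:**
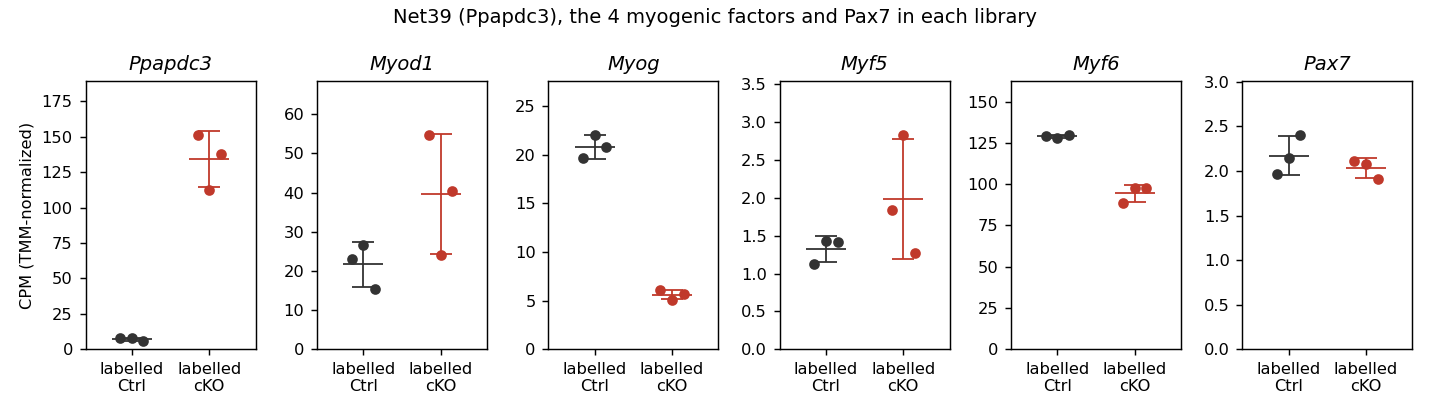
Level of Net39 (Ppapdc3) and of the 5 members in each library, in CPM on linear axes from 0, for the groups as labelled. Points are libraries, long bars the mean and whiskers 1 SD (n = 3). Net39 is low in labelled Ctrl, Myog and Myf6 are higher in all 3 libraries labelled Ctrl, and the groups overlap for Myod1, Myf5 and Pax7.

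Myog, which encodes myogenin, differed most among the members. Its counts were 768, 914 and 760 in labelled Ctrl and 215, 196 and 252 in labelled cKO. In CPM these were 19.6, 22 and 20.8 against 6.07, 5.09 and 5.72, so the lowest labelled Ctrl library lay above the highest labelled cKO library and each group was narrow. The means were 20.8 ± 1.22 and 5.63 ± 0.496 CPM (SD, n = 3), 3.70-fold higher in labelled Ctrl. The log2 fold change was -1.89 (SE 0.10, 95% interval -2.13 to -1.64, adjusted p = 0.00055), and Myog ranked number 5 of all genes tested by p. In the exact two-sided permutation test the p was 0.1, the smallest that 3 against 3 allows. The fold change stayed between -2.15 and -1.84, and the call held, in all 13 alternative fits.

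Myog is on chromosome 1, plus strand, from 134289989 to 134292548 of GRCm38 (also called mm10) in GENCODE M21, with 3 exons. Its promoter is shown because E-boxes and a MEF2 motif are the sites through which myogenic factors and MEF2 proteins are known to act on it. The 250 bases before the RefSeq start, chr1:134289754-134290003 on the plus strand of GRCm38.p6, are printed with E-boxes (CANNTG, which reads alike on both strands) and the MEF2 motif (TA, 4 bases that are each A or T, then TA, searched on both strands) in capitals.
Myog promoter: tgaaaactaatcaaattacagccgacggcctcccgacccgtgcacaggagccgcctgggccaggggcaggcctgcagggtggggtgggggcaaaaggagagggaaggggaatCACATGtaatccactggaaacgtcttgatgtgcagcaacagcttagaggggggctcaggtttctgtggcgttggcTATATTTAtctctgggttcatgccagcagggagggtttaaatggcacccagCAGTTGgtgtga
The window held 2 E-boxes, CACATG from base 138 to base 133 before the start and CAGTTG from 12 to 7, and the MEF2 motif TATATTTA from 63 to 56. The last 15 bases of the window lie inside the gene as GENCODE draws it. Of 32536 different RefSeq promoters of the same length, 66.2% held at least 1 E-box, 31.7% at least 2, 8.53% a MEF2 motif and 5.84% an E-box and a MEF2 motif. RefSeq promoters were found for 3 of the 5 members, Myog, Myf5 and Pax7, and the windows of Myf5 and Pax7 held 0 E-boxes and 0 MEF2 motifs. All 250 bases of the Pax7 window lie inside the gene as GENCODE draws it. A match to these letters is a description and was not measured as a bound site.

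Myf6, which encodes MRF4, also passed the test, with a smaller difference. Its counts were 5056, 5316 and 4753 in labelled Ctrl and 3139, 3753 and 4291 in labelled cKO. The CPM were 129, 128 and 130 against 88.6, 97.4 and 97.5, and the groups did not overlap. Mean levels were 129 ± 0.851 and 94.5 ± 5.13 CPM (SD, n = 3), 1.37-fold higher in labelled Ctrl and below the 2-fold limit. The log2 fold change was -0.45 (SE 0.07, 95% interval -0.62 to -0.28, adjusted p = 0.00745), and Myf6 ranked number 751 by p. All 13 alternative fits kept the call, with fold changes of -0.70 to -0.42 and an adjusted p of at most 0.0349. Myf6 lies on the minus strand of chromosome 10, from 107492853 to 107494737, 6718 bases from Myf5, and neither shares exon bases with another gene.

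Myod1, the gene of MyoD, had its highest levels in 2 libraries labelled cKO, and the groups overlapped. Counts were 905, 1106 and 564 in labelled Ctrl and 1940, 929 and 1774 in labelled cKO. The CPM were 23.1, 26.7 and 15.4 against 54.7, 24.1 and 40.3, so the second labelled cKO library lay inside the labelled Ctrl range. The means were 21.7 ± 5.75 and 39.7 ± 15.3 CPM (SD, n = 3). The log2 fold change of 0.87 (SE 0.31, 95% interval 0.14 to 1.6) did not pass (adjusted p = 0.0836, edgeR), and the exact permutation p was 0.2. This call rested on the library and the tool. Without labelled cKO library 2 the value was 1.11 and passed (adjusted p = 0.0229), and with DESeq2 it was 0.88 and passed (adjusted p = 0.0162). Without labelled cKO library 1 it was 0.55 (adjusted p = 0.251). Myod1 lies on the plus strand of chromosome 7, from 46376474 to 46379099.

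Myf5 was low in whole muscle and did not pass the test. It had 44, 59 and 52 counts in labelled Ctrl and 65, 109 and 56 in labelled cKO. In CPM the values were 1.12, 1.42 and 1.42 against 1.83, 2.83 and 1.27, with the third labelled cKO library inside the labelled Ctrl range. The log2 fold change was 0.58 (SE 0.31, 95% interval -0.16 to 1.31, adjusted p = 0.215). Without labelled cKO library 2, the highest, it was 0.21. The interval of the fold ran from 0.898 to 2.48, so it covers no difference as well as one of 2-fold. Myf5 lies on the minus strand of chromosome 10, from 107482908 to 107486134.

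Pax7, the satellite cell factor, was the most even member. Its counts were 77, 89 and 88 in labelled Ctrl and 75, 80 and 84 in labelled cKO. The CPM were 1.97, 2.15 and 2.41 against 2.12, 2.08 and 1.91, and the ranges overlapped. The means were 2.17 ± 0.221 and 2.03 ± 0.11 CPM (SD, n = 3), and the log2 fold change was -0.10 (SE 0.17, 95% interval -0.48 to 0.29, adjusted p = 0.707). As a fold, the interval ran from 0.715 to 1.23, so a difference of 2-fold lay outside it in either direction, while differences inside it could not be told from none. In bulk muscle, fewer cells of a type and less RNA per cell cannot be told apart, for satellite cells as for myonuclei. Pax7 lies on the minus strand of chromosome 4, from 139737062 to 139833528.

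**Figure D2:**
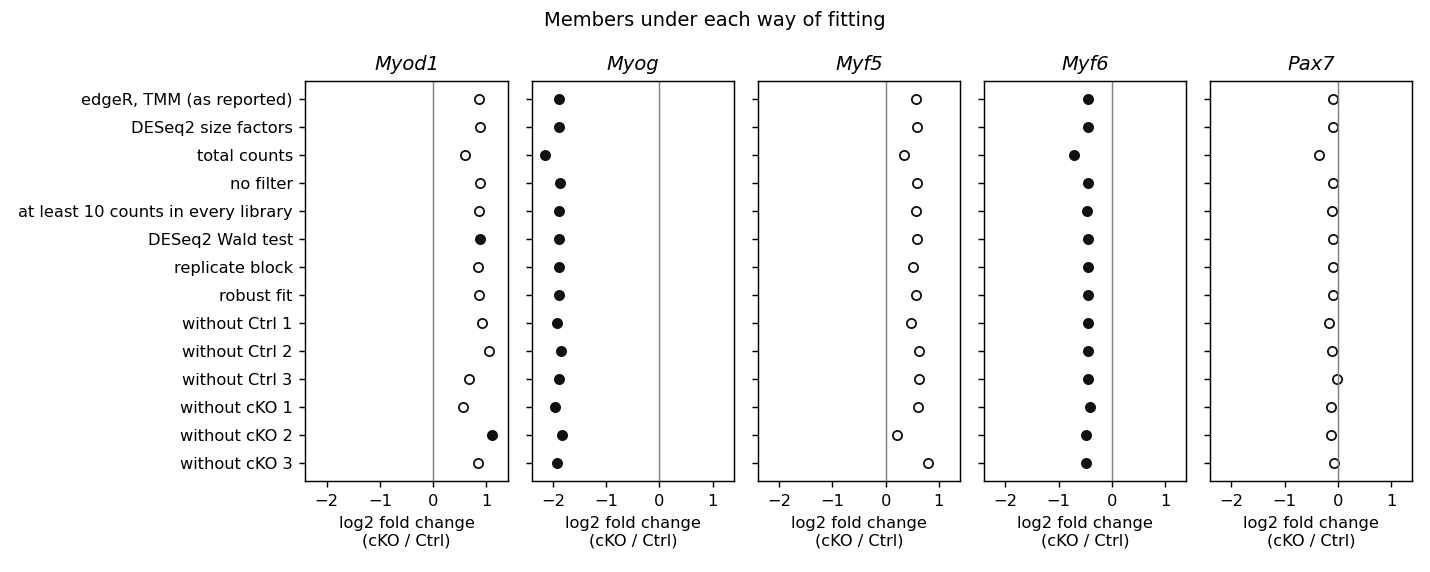
Log2 fold change of each member (labelled cKO over labelled Ctrl, linear axis) as reported and in the 13 alternative fits, with filled points where the adjusted p was under 0.05. Myog and Myf6 are filled in every row, Myf5 and Pax7 in none, and Myod1 under the DESeq2 Wald test and without labelled cKO library 2.

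The levels of different members were compared per kilobase of exon (CPM per kb), since longer transcripts give more reads. In labelled Ctrl the mean CPM per kb was 102 for Myf6, 13.9 for Myog, 11.7 for Myod1, 0.635 for Myf5 and 0.371 for Pax7. Myog (13.1 to 14.7) and Myod1 (8.29 to 14.3) overlapped there, and the other neighbors in that order did not. In labelled cKO the order was Myf6 (mean 74.8), Myod1 (21.3), Myog (3.76), Myf5 (0.95) and Pax7 (0.347), and no neighbors overlapped. Myog and Myod1 thus changed places between the labelled groups, with Myf6 highest and Pax7 lowest in both.

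The make-up of the 4 factors differed accordingly. Myog made up 10.2 to 11.2% of their summed CPM per kb in labelled Ctrl and 3.59 to 3.88% in labelled cKO. The Myod1 share was 6.59 to 10.9% against 13.7 to 28.2%, and that of Myf5 was 0.420 to 0.543% against 0.591 to 1.43%. The levels of Myod1 and Myf5 themselves overlapped between the groups and did not pass, and their shares also carry the lower sum in labelled cKO. Myf6 held 77.3 to 81.8% against 67.1 to 81.3%, and those ranges overlapped. The ratio of Myod1 to Myog per kb was 0.947, 0.972 and 0.596 in labelled Ctrl and 7.25, 3.81 and 5.66 in labelled cKO, with no overlap (exact permutation p = 0.1, the smallest possible). Summed over the 4 factors, the level was 126 to 131 CPM per kb in labelled Ctrl and 94.9 to 104 in labelled cKO.

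**Figure D3:**
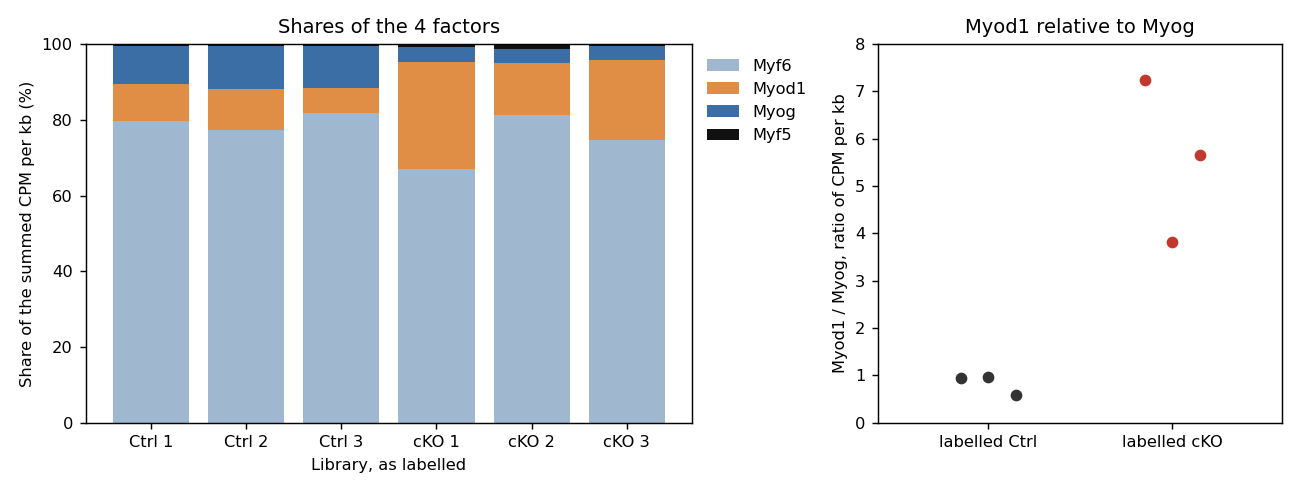
Left, the share of each factor in the summed CPM per kb of the 4 factors (percent, stacked bars from 0) in each library. Right, the ratio of Myod1 to Myog in CPM per kb, each point a library; labelled Ctrl libraries lie at 0.596 to 0.972 and labelled cKO libraries at 3.81 to 7.25.

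The other genes of the pathway were taken from 5 lists by role, 99 different genes in all, of which 3 stand on more than 1 list. Of the 94 tested, 33 genes (35.1%) passed the test in either direction, against 24.4% of all genes tested. The lists were chosen with earlier results of these data known, so the difference in share cannot be read as a result for the pathway. Of the 33, 11 passed in each of the 6 fits that left out 1 library, and the other 22 were lost in at least 1 of them. Among the 11 were Six2, Eya4, Lbx1, Smarcd3, Cdh15, Myh3, Myl6b, Ncam1, Jam3 and Runx1. Scaled by total counts, the numbers higher in labelled Ctrl and in labelled cKO were 7 and 1 for partners and inhibitors, 8 and 4 for upstream regulators, 6 and 0 for satellite cell markers and 7 and 0 for synaptic genes, so the balance of directions in these 4 lists rests on the scaling.

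Among the dimer partners and inhibitors of the myogenic factors (20 genes, all tested), 2 passed with a higher level in labelled Ctrl and 2 with a higher level in labelled cKO, and the median log2 fold change was -0.16. These calls were 2 of 20 in each direction, where 11.8% and 12.6% of all genes passed. The E proteins that pair with the myogenic factors did not pass, with log2 fold changes of -0.13 for Tcf3, -0.14 for Tcf4 and -0.11 for Tcf12. Scaled by total counts they were -0.39, -0.39 and -0.36 and passed, with adjusted p of 0.022, 0.0492 and 0.0463. Of the Id proteins, which take up E proteins and keep them from DNA, Id2 was higher in labelled Ctrl (3.55 ± 0.331 against 2.19 ± 0.279 CPM, log2 fold change -0.69, adjusted p = 0.0252). Id3 was higher there too, at 28.8 ± 2.08 against 21.8 ± 1.89 CPM (-0.40, adjusted p = 0.0255). Id1 did not pass (-0.31, adjusted p = 0.33). Bhlhe41, a helix-loop-helix repressor also known from the circadian clock, was higher in labelled cKO, at 105 ± 17.7 against 47.1 ± 17.9 CPM (log2 fold change 1.16, adjusted p = 0.0274). The E-box repressor Zeb1 was higher there as well (62.5 ± 3.63 against 50.8 ± 3.22 CPM, 0.30, adjusted p = 0.0356), but not with total counts (0.05, adjusted p = 0.738). These 4 calls were not stable to single libraries. Without labelled Ctrl library 2, cKO library 1 or cKO library 3 the list had 0 calls in each direction, and without labelled Ctrl library 1 it had 0 and 1.

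Of the upstream and cooperating regulators (28 genes, 26 tested), 4 passed with a higher level in labelled Ctrl and 8 with a higher level in labelled cKO. Their median was -0.06, and the shares of all genes that passed were 11.8% and 12.6%. The homeodomain factor Six2 and the cofactor Eya4 were higher in labelled cKO. Six2 was at 13.9 ± 2.84 against 38.5 ± 7.37 CPM (1.47, adjusted p = 0.00394), and Eya4 at 24.5 ± 4.10 against 61.9 ± 18.2 (1.33, adjusted p = 0.00888). Smarcd3, the BAF60c subunit of the chromatin remodeler that works with MyoD, was at 148 ± 6.85 against 264 ± 33.9 CPM (0.83, adjusted p = 0.00415). The muscle progenitor factor Lbx1 was at 36.3 ± 4.31 against 61.8 ± 4.67 CPM (0.77, adjusted p = 0.00479).

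Higher in labelled Ctrl were Six5, a homeodomain factor (6.79 ± 0.639 against 4.49 ± 0.242 CPM, log2 fold change -0.60, adjusted p = 0.0155), the class IIa deacetylase Hdac7 (-0.40, adjusted p = 0.019) and Eya3 (-0.32, adjusted p = 0.0325). Mef2c, a MEF2 factor, stood at 928, 980 and 1097 CPM against 787, 918 and 860, groups that did not overlap, and did not pass (-0.23, SE 0.11, adjusted p = 0.169), while with total counts it did (-0.48, adjusted p = 0.0265). Hdac4 and Dach2 belong to the route by which nerve activity is known to control Myog. Hdac4 did not pass (-0.10, adjusted p = 0.593), but with total counts it did (-0.36, adjusted p = 0.0379). Dach2 had 123, 135 and 54 counts against 34, 66 and 14, with overlap, and did not pass either (-1.41, SE 0.56, adjusted p = 0.108). It passed with DESeq2 (adjusted p = 0.042) and without labelled cKO library 2 (adjusted p = 0.0403). The count of genes higher in labelled Ctrl was 0 without labelled Ctrl library 1 or cKO library 3, 1 without Ctrl library 2 and 2 without cKO library 1. The calls higher in labelled cKO were 5 to 7 without single libraries, with 5 when labelled Ctrl library 1, Ctrl library 2 or cKO library 1 was left out.

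Satellite cell markers other than Pax7 and Myf5 (18 genes, 17 tested) gave 2 calls higher in labelled Ctrl and 1 higher in labelled cKO. These were 2 and 1 of 17, where 11.8% and 12.6% of all genes passed. The median log2 fold change was 0.003. M-cadherin (Cdh15), an adhesion protein between satellite cell and fiber, was at 15.7, 15.4 and 16.3 CPM in labelled Ctrl and 20.1, 24.5 and 23.4 in labelled cKO (0.52, SE 0.10, adjusted p = 0.0107). The integrin Itga7, which fibers express too, was at 163 ± 9.46 against 128 ± 9.38 CPM (-0.34, adjusted p = 0.0306), and syndecan-3 (Sdc3) at 36.6 ± 0.963 against 29.5 ± 2.63 (-0.31, adjusted p = 0.0358). Calcr, the calcitonin receptor of quiescent satellite cells, had 0.459 ± 0.288 against 0.637 ± 0.395 CPM and did not pass (adjusted p = 0.579). The Cdh15 call held without each library and was lost with total counts (0.28, adjusted p = 0.132). Itga7 was lost without labelled Ctrl library 1 or 2 or cKO library 3. Sdc3 was lost in each fit that left out 1 library except the one without cKO library 3. As a count over the list, 0 genes were higher in labelled Ctrl without Ctrl library 1 or 2 and 1 without cKO library 1 or 3.

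Among the genes of myocyte differentiation and fusion (20 genes, 17 tested), 7 passed with a higher level in labelled Ctrl, as Myog did, and 1 with a higher level in labelled cKO. In these directions 11.8% and 12.6% of all genes tested passed. The median log2 fold change of the list was -0.46. Embryonic myosin, Myh3, was at 159, 201 and 171 CPM in labelled Ctrl and 6.21, 21.5 and 9.68 in labelled cKO, groups far apart (log2 fold change -3.83, SE 0.44, adjusted p = 0.00302). The adhesion molecule Ncam1, which in adult muscle marks denervated and regenerating fibers, was at 28.6, 43.7 and 45.3 against 11.1, 11 and 7.97 CPM (-1.97, SE 0.21, adjusted p = 0.00253). Jam3, another cell adhesion protein, was at 43.9, 41.8 and 31.5 against 11.6, 15 and 10.6 CPM (-1.66, SE 0.17, adjusted p = 0.0023). The myosin light chain Myl6b was at 18.2 ± 5.6 against 7.43 ± 0.284 CPM (-1.29, adjusted p = 0.00918), and the cell cycle inhibitor Cdkn1c at 46.4 ± 6 against 33.3 ± 0.622 (-0.48, adjusted p = 0.0172).

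Perinatal myosin, Myh8, went the other way, at 43.0 ± 16.8 CPM in labelled Ctrl and 99.0 ± 26.2 in labelled cKO (log2 fold change 1.20, adjusted p = 0.0275). Its call was lost without labelled Ctrl library 1 or 2 or cKO library 3, which left the list with 0 calls in that direction. The calls higher in labelled Ctrl were 4 to 9 without single libraries, with 4 when cKO library 3 was left out.

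The fusion protein myomaker (Mymk, listed under Tmem8c), which lets myoblasts merge into fibers, had 33, 7 and 29 counts in labelled Ctrl and 1 count in each labelled cKO library. It was too low to enter the test. The ratio of the summed counts, 69 against 3, was 23.2 after scaling by depth and TMM factors, with an exact 95% counting interval of 7.60 to 115 that leaves out the spread between mice. With no filter on low counts, edgeR gave it a log2 fold change of -4.38 (adjusted p = 0.00893). Its partner myomerger (Mymx, listed as Gm7325, named after its values were seen) had 6, 4 and 12 counts against 0, 1 and 0, a ratio of 22.1 with a counting interval of 3.58 to 914.

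Of the synaptic and denervation-induced genes (16 genes, all tested), 4 passed with a higher level in labelled Ctrl and 2 with a higher level in labelled cKO. Over all genes tested, 11.8% and 12.6% did so. The median of the list was -0.18. Runx1, a transcription factor induced in denervated muscle, was at 7.79, 6.73 and 10.4 CPM in labelled Ctrl and 2.17, 3.66 and 2.54 in labelled cKO (log2 fold change -1.57, SE 0.24, adjusted p = 0.0066). Among the subunits of the muscle acetylcholine receptor, Chrnd was at 5.83 ± 0.530 against 2.85 ± 0.908 CPM (-1.04, adjusted p = 0.0225) and Chrnb1 at 60.9 ± 6.55 against 38.2 ± 7.56 (-0.67, adjusted p = 0.0197). Chrna1, with 26.7 ± 1.78 against 18.8 ± 4.86 CPM, did not pass (-0.50, adjusted p = 0.0865), nor did the embryonic subunit Chrng, with 32, 10 and 11 against 3, 14 and 5 counts (-1.26, adjusted p = 0.217). Chrna1 passed with DESeq2 (adjusted p = 0.0488), with total counts (adjusted p = 0.0312) and without labelled cKO library 2 (adjusted p = 0.0242). The agrin receptor Lrp4 was higher in labelled Ctrl (24.2 ± 1.55 against 16.4 ± 2.49 CPM, -0.56, adjusted p = 0.0195).

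Higher in labelled cKO were Trim63, the ubiquitin ligase MuRF1 (252 ± 67.9 against 523 ± 185 CPM, log2 fold change 1.05, adjusted p = 0.0399), and rapsyn (Rapsn), which anchors the receptor (25.2 ± 1.43 against 30.1 ± 0.809, 0.26, adjusted p = 0.046). The Rapsn call was lost in each of the 6 fits that left out 1 library, and with total counts the value was 0.002 (adjusted p = 0.989). With total counts Trim63 did not pass either (0.78, adjusted p = 0.0541). The list kept 1 call higher in labelled Ctrl, Runx1, without labelled Ctrl library 2 or cKO library 1, and 2 without Ctrl library 1 or cKO library 3. It had 0 calls higher in labelled cKO without any of these 4 libraries, and 1 without either of the other libraries.

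**Figure D4:**
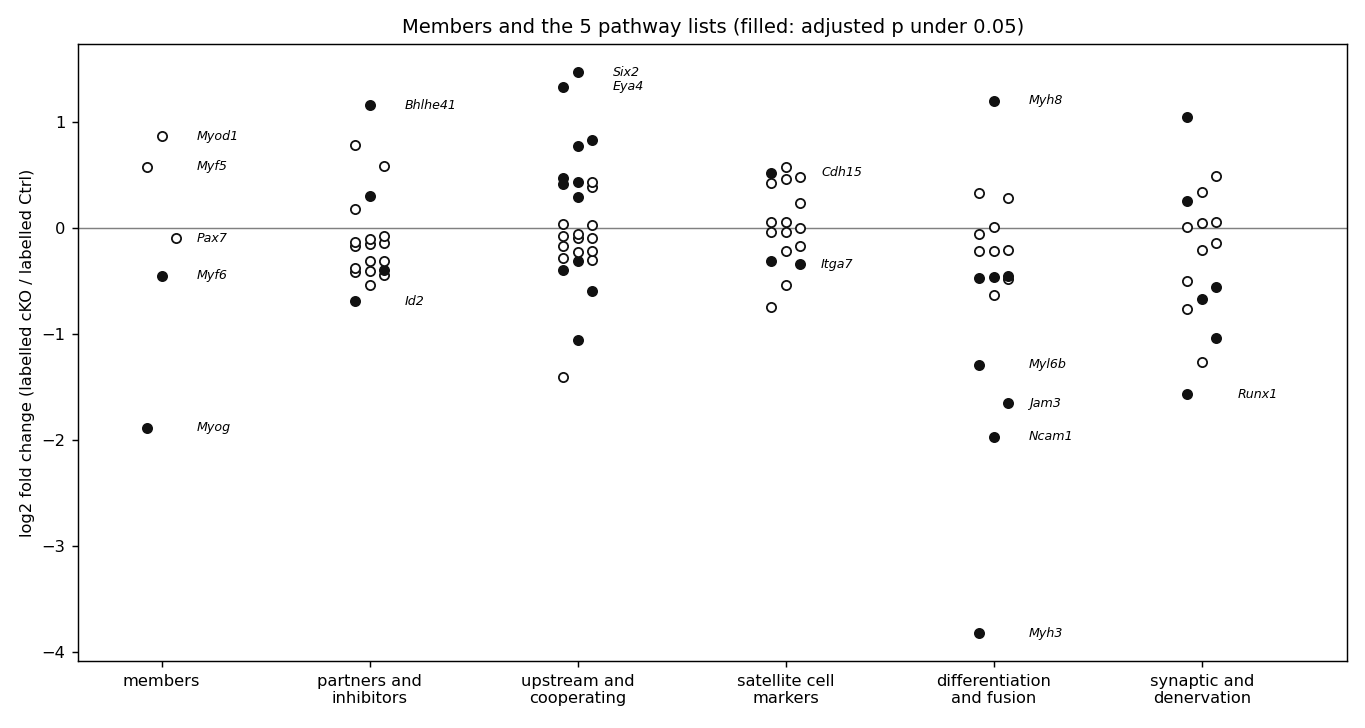
Log2 fold change (labelled cKO over labelled Ctrl, linear axis) of the 5 members and of the tested genes of the 5 pathway lists, each point a gene, filled where it passed the test. Myog (-1.89) lies near Ncam1 (-1.97) and Runx1 (-1.57), and Six2 (1.47) and Eya4 (1.33) are highest among the regulators.

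The members' values were compared with those of all genes of at least 1 CPM on average, 12349 genes, as the root mean square (RMS) difference of log2 CPM over the 6 libraries, each gene centred on its mean. The genes most like Myog were Nfkb2, an NF-kB subunit (RMS 0.0972), 6430548M08Rik (0.111) and the anoctamin Ano10 (0.116). Nfkb2 was at 62.2 against 16.8 CPM on average. For Myf6 they were Nek8 (0.0211), the tetraspanin Cd9 (0.0369) and Hps4 (0.0371). Nek8 is low, at 1.64 against 1.06 CPM with a fitted log2 fold change of -0.62, and the 0.5 CPM added before the log2 makes the differences of such genes smaller. For Myod1 they were Tfcp2l1, a transcription factor (0.125), 1700027J07Rik (0.133) and Rhbdl3 (0.148). Mum1l1 (0.0358), Gfod2 (0.0918) and the integrin Itga3 (0.104) were closest to Myf5, and Prmt1 (0.0322), Taf9 (0.0333) and Tbcb (0.0339) to Pax7. With 6 libraries in 2 groups, such likeness describes these libraries only.

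Markers of fibers and of other cells moved between the groups as well, and their part in the members' values was not tested. Beside the counts of markers, 11.8% of all genes tested passed with a higher level in labelled Ctrl and 12.6% in labelled cKO. All 8 fast fiber markers passed with a higher level in labelled cKO, at a summed 152628 to 194106 CPM against 59800 to 98236 in labelled Ctrl. Of the 8 slow fiber markers, 3 passed with a higher level in labelled Ctrl in edgeR and 7 in DESeq2, and the sum was 8478 to 14593 CPM there against 446 to 3872 in labelled cKO. By library the fast fiber sums were 59800, 81383 and 98236 CPM in labelled Ctrl, where Myod1 was at 23.1, 26.7 and 15.4 CPM, and 194106, 152628 and 177979 CPM in labelled cKO, where Myod1 was at 54.7, 24.1 and 40.3 CPM. The groups did not overlap in the fast fiber sum, and they did in Myod1.

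All 8 immune markers had a log2 fold change below 0, and 6 passed with a higher level in labelled Ctrl in edgeR and 8 in DESeq2 (summed 177 to 191 against 87.6 to 114 CPM). Of the 8 markers of fibro-adipogenic progenitors 5 had a log2 fold change below 0 and 4 passed, all higher in labelled Ctrl, and the summed ranges overlapped (1179 to 1405 against 819 to 1357 CPM). All 7 tested markers of proliferating cells had a log2 fold change below 0 and 1 passed, with summed ranges that overlapped, at 4.95 to 9.22 against 2.54 to 5.61 CPM. Endothelial markers gave 0 calls of 5 in edgeR, 0 at an unadjusted p under 0.05 and 0 in DESeq2, at a summed 409 to 439 against 375 to 389 CPM. Schwann cell markers gave 0 calls of 5 in edgeR, 2 at an unadjusted p under 0.05 and 1 in DESeq2, all higher in labelled Ctrl, at a summed 87.5 to 138 against 46.3 to 88.5 CPM. Satellite cell markers summed to 601 to 700 CPM in labelled Ctrl and 549 to 618 in labelled cKO, ranges that overlap. Asb5 and Itga7, the latter also a fiber gene, carried much of that sum, at 172 to 294 and 119 to 173 CPM, so it says little of the low markers. Every marker had a count in at least 1 library, so the number at 0 throughout was 0.

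**Figure D5:**
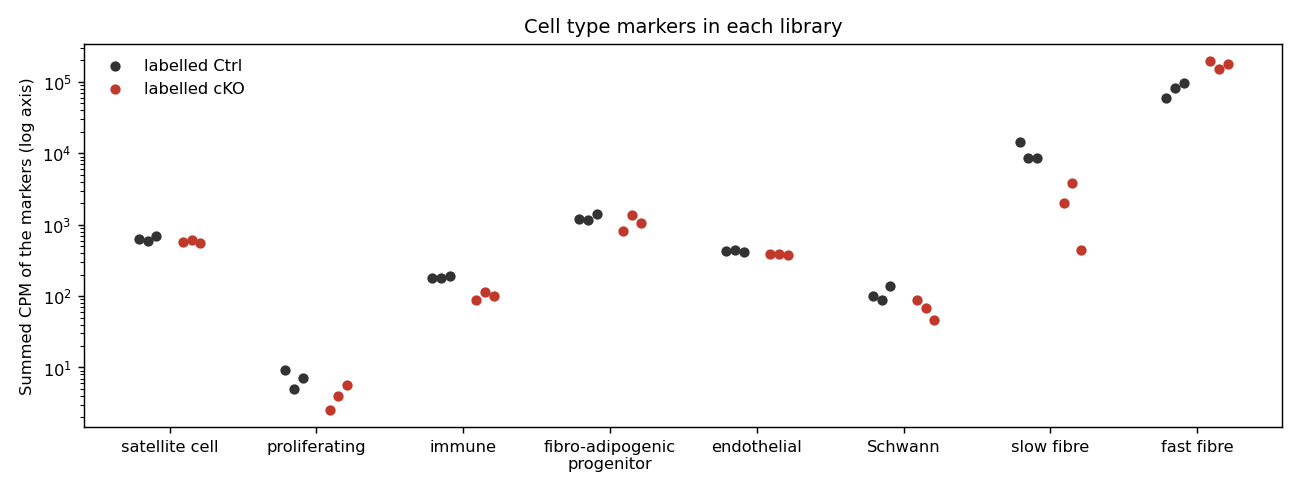
Summed CPM of the markers of each cell type (log axis), each point a library, black for labelled Ctrl and red for labelled cKO. Fast fiber markers are higher and slow fiber and immune markers lower in the 3 libraries labelled cKO, while satellite cell markers overlap.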

How the data were processed

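The authors deposited 1 table of raw counts per gene for each library. Per their methods and processing notes, reads were checked with FastQC 0.11.8, trimmed with Trimmomatic 0.39, aligned to mm10 with HISAT2 2.1.0 and counted with featureCounts 1.6.2. The annotation and the use of strand are not given in the sources used here, so reads from antisense or overlapping genes may not be separated. The libraries were poly(A)-selected, and sequenced paired-end. Each library is 1 mouse as labelled.

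The test was that of edgeR 4.0.16 in R 4.3.3 (TMM, filterByExpr, glmQLFit, glmQLFTest, Benjamini-Hochberg over all 14180 genes). A gene passed, which is named a call here, at an adjusted p under 0.05. The limits of the study were this and a fold over 2. SEs came from the F statistic, and 95% intervals from its degrees of freedom. CPM used TMM factors, and CPM per kb the union of exons in GENCODE M21. An exact permutation test, two-sided, was run on single values. Motifs were searched in RefSeq promoters of GRCm38.p6, and 0.5 CPM was added before the log2 in the comparison of patterns. Alternatives were the size factors of DESeq2, scaling by totals, leaving out the filter, a filter of 10 counts in each library, the Wald test of DESeq2 1.42.0, the mouse number as a replicate block, a robust fit and each library left out.

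The members and lists were chosen with earlier results of these data known. Named are the 5 members, Ppapdc3, up to 5 genes of smallest p per list and direction among those passing, 14 further genes of the lists whatever their p (Tcf3, Tcf4, Tcf12, Id1, Id2, Id3, Mef2c, Hdac4, Dach2, Chrna1, Chrng, Mymk, Calcr, Cdh15) and the 3 genes of most like pattern per member. A few of these genes are not reported here. On simulated data with 200 genes changed 2-fold between the labelled groups (14168 genes tested), edgeR recovered 140 of them (70%) with 13 other calls, and DESeq2 155 (77.5%) with 41. In the measured data 3454 of 14180 genes passed, far more than were changed in the simulation, so these rates cannot be carried over.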

Additional observations from a re-analysis of the deposited data

How the results depend on the processing

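The calls and directions of Myog and Myf6 (higher in labelled Ctrl) and of Ppapdc3, and the lack of a call for Myf5 and Pax7, held in all 13 alternatives. Myod1 passed with the DESeq2 Wald test (0.88) and without labelled cKO library 2, with 0.55 to 1.11 over the fits that left out 1 library, so the count of members higher in labelled cKO was 1 with DESeq2 and 0 to 1 without single libraries. Scaling by total counts gave, in the order higher in labelled Ctrl then cKO, 7 and 1 partners, 8 and 4 upstream regulators, 6 and 0 satellite cell markers, and 7 and 0 synaptic genes. It gave 4069 and 673 of all genes, and 1022 higher in labelled Ctrl by over 2-fold. The mouse numbers share no litter or day in the labels and did not pair the samples (correlations of deviations 0.0848, -0.242 and -0.00992). With the mouse number as a replicate block, 0 partners and 0 satellite cell markers were higher in labelled Ctrl, 5 upstream regulators and 1 synaptic gene in labelled cKO, and 972 and 927 of all genes passed. Dach2 passed in that fit too (adjusted p = 0.0367, edgeR). No filter left 1 satellite cell marker (labelled Ctrl) and 1 synaptic gene (labelled cKO), the robust fit 1 synaptic gene (labelled cKO), and DESeq2 2 satellite cell markers (labelled cKO). Without single libraries, the counts higher in labelled Ctrl were 0 to 3 partners, 0 to 5 upstream regulators, 0 to 2 satellite cell markers, 4 to 9 differentiation genes, 1 to 6 synaptic genes and 788 to 1808 of all genes. Those higher in labelled cKO were 0 to 3 partners, 5 to 7 upstream regulators, 0 to 1 differentiation genes, 0 to 1 synaptic genes and 766 to 1777 of all genes. The causes were not tested.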
